A study of Mus musculus with 31 samples.

Results

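The brains of mice killed 3 to 4 h after an intravenous dose of oleic acid were compared, across all genes on the array, with those of mice killed 1 to 1.5 h after the same dose. The arrays were chosen from their titles alone: the 3 oleic acid mice at 3 h and the 3 at 4 h, against the 3 at 1 h and the 3 at 1.5 h, 12 of the 31 arrays in all. Every mouse was a 6-week-old female of strain C57BL/6 (named C57Bl/6J in the treatment protocol), anaesthetised with xylazine and ketamine, and given 200 µl into the tail vein. Oleic acid mice received 1.2 µl per g of body weight; control mice received physiological serum in the same volume and under the same anaesthesia. The serum mice killed at 3 to 4 h (2 at each time, 4 in all) and at 1 to 1.5 h (3 at each time, 6 in all) gave the change over the same hours without oleic acid. RNA of the whole brain of 1 mouse was labelled with Cy3 and hybridised to 1 single-colour Agilent array. The hour of day of injection and of death was not given in the labels used here, and mice that were not injected were not analysed here. Because every array held bulk brain RNA, fewer cells of a type and less RNA per cell cannot be told apart.

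Oleic acid is a fatty acid that, injected into a vein, is commonly used to model acute lung injury. Glucocorticoids are the adrenal hormones of the stress response; their receptor enters the nucleus and switches on genes that slow glucose use, buffer metals and damp inflammation. Transcription factors of the FOXO family act in the same direction on metabolism when insulin signalling is low, and PPAR factors, which bind fatty acids, drive lipid handling. Many of these genes are known to be expressed in brain endothelium and glia.

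A gene's level is given as its log2 signal, the log2 processed intensity minus the 75th percentile of the array, so that 0 is the 75th percentile, and a change is the mean log2 signal at 3 to 4 h minus that at 1 to 1.5 h. Between 54.3% of the spots (OA 1 h replicate 3) and 76.3% (OA 4 h replicate 1) were well above background on the 12 arrays, and no spot was saturated. The arrays lay on 4 slides. All 1 h arrays were on slide 1 and all 4 h arrays on slide 4. Within the 12 arrays, 1 h cannot be told apart from its slide, and 4 h only through 1 array, OA 3 h replicate 3. Slide 3 alone held both periods (OA 3 h replicates 1 and 2 with OA 1.5 h replicates 2 and 3), OA 1.5 h replicate 1 was on slide 2, scanned on another day, and OA 3 h replicate 3 was on slide 4. In a principal component analysis of the 12 arrays the first component took 27.1% of the variance, and the slide accounted for 57.4% of its spread and the period for 8.0%. The slide accounted for 73.2% of the spread of the second component (20.0% of the variance) and the period for almost none of it. Of the third (15.5% of the variance) the slide accounted for 55.0% and the period for 42.2%, shares that overlap. Pairs of arrays correlated at 0.968 to 0.995 over 25173 genes. The mean log2 signal of 20 cerebellar marker genes stood apart in OA 4 h replicate 3 (-0.65) and OA 1.5 h replicate 2 (-0.74), against 0.29 to 2.12 on the other 10 arrays. OA 4 h replicate 3 was also the lowest in 18 hypothalamic markers (-0.48, against 0.31 to 0.72 on the other 11).

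The stretches of 250 bases before the transcription start of 6 genes that were higher at 3 to 4 h are shown because each was picked for letters that match binding sites of the receptors and factors named above. They are RefSeq sequences on build GRCm38.p6, written 5′ to 3′ on the strand of the gene. Capitals mark every match, on either strand, to 4 motifs: a glucocorticoid response element (GNACA and TGTNC with any 3 bases between them; in Map3k6, Sgk1, Mt1 and Txnip), the core of a metal response element (TGCNCNC; in Mt1, Mt2, Map3k6, Txnip and Ciart), a FOXO site (GTAAACA; in Txnip) and an E-box (CACGTG), the site of the clock activators (in Ciart and Sgk1). No 2 capital runs overlap. The stretches lie at chr4:133240568-133240817, + strand (Map3k6), chr10:21993640-21993889, + strand (Sgk1, the only one of its 6 listed starts with a glucocorticoid response element match), chr8:94178839-94179088, + strand (Mt1), chr8:94172368-94172617, + strand (Mt2), chr3:96557707-96557956, + strand (Txnip) and chr3:95882229-95882478, - strand (Ciart).
Map3k6: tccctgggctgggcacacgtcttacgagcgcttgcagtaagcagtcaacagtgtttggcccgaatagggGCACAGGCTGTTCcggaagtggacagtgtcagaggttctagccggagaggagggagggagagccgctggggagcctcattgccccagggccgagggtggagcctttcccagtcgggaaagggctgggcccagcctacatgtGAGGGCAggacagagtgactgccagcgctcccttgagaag
Sgk1: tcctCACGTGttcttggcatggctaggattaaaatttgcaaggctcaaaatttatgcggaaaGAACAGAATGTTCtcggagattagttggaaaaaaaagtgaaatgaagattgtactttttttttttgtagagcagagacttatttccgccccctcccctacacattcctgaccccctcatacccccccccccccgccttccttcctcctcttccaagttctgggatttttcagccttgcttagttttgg
Mt1: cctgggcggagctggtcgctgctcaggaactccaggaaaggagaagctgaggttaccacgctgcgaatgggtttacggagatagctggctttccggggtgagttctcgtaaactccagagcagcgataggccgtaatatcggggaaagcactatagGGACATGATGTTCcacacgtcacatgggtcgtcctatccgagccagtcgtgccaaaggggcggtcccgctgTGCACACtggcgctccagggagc
Mt2: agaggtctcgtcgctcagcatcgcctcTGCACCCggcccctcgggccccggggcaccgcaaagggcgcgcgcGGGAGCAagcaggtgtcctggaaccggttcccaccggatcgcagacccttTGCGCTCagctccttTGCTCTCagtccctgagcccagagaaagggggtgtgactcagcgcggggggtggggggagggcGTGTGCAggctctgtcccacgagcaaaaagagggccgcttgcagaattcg
Txnip: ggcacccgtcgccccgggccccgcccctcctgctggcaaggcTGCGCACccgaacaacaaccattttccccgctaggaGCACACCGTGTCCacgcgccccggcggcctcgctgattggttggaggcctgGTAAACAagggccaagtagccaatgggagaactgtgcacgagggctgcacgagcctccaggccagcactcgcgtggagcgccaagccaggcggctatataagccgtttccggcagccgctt
Ciart: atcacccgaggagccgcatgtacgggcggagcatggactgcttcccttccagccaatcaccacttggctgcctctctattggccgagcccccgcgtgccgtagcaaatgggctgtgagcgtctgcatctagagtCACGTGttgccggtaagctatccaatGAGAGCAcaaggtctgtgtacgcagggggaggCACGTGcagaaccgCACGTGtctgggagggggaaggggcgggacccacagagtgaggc

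Letters matching the glucocorticoid response element stood in the same window of 119 of the 27025 genes with a promoter in the table (0.44%), and of 0.384% of the 13017 genes tested that had one. Of the 131 genes called higher with a promoter there, 6 (4.58%) had a match: Cpxm1, Txnip, Map3k6, Mt1, Sgk1 and Ptpdc1, 2 of which (Cpxm1 and Ptpdc1) belong to no list used here. Of the 16 called lower, 1 (6.25%) had a match, Ipcef1, so the share was not lower there than in the genes called higher. The other motifs stood in the genes called higher at shares close to those of the genes tested. The metal response core stood in 57.3%, against 56.2%, the FOXO site in 3.82%, against 2.84%, and the E-box in 10.7%, against 9.23%. In the 16 called lower these 3 shares were 37.5%, 6.25% and 12.5%. Mt2 had 5 metal response cores and Ciart had 3 E-boxes, at 116, 58 and 44 bases before the start. These matches are descriptions of the letters in a short window.

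By the brightest probe of each gene, the brain of oleic acid mice carried more RNA at 3 to 4 h than at 1 to 1.5 h for 14 of 34 genes known to respond to glucocorticoids. The same held for 5 of 22 genes of the FOXO and fasting response, a list with 13 of 22 members higher, against 15499 of all 25173 genes. Cdkn1a, which is in both counts, went the other way with a second probe (-0.50). Of 25173 genes tested with limma, 280 (1.11%) passed an adjusted p of 0.05, 237 higher (0.941%) and 43 lower (0.171%), and are referred to as called. Their median change was 0.59 for those higher and -0.60 for those lower, against a median of 0.06 over all genes. The values of the 6 late arrays did not overlap those of the 6 early arrays in 93 of the 280, a pattern that 0.85% of all genes tested had. Of the 280, 172 carry a gene symbol and the others only a clone, transcript or predicted-gene identifier. The count changed with single arrays: it was 123 without OA 1 h replicate 2, 133 without OA 4 h replicate 3, 140 without OA 3 h replicate 3, 141 without OA 4 h replicate 1, 154 without OA 1.5 h replicate 3, 162 without OA 1 h replicate 1, 173 without OA 3 h replicate 2, 181 without OA 1.5 h replicate 1 and 822 without OA 1 h replicate 3. With slide as a fixed block it was 2 and as a random block 16.

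The glucocorticoid-responsive genes formed the largest set of calls among 46 lists. The lists and their members were chosen with earlier results of these data known, and the glucocorticoid list was the longest. All 34 of its members were measured, 33 were higher at 3 to 4 h and 14 were called, all higher, with a median change of 0.46. Of all 25173 genes tested, 15499 were higher and 1.11% were called. A direction shared by nearly all members was not particular to this list. All 25 ribosomal protein genes and all 26 respiratory chain genes were also higher (medians 0.16 and 0.16), with none called. The mean log2 signal over the list was 1.49, 1.89 and 2.07 at 3 h and 2.22, 2.21 and 2.08 at 4 h, against 1.41, 1.40 and 1.64 at 1 h and 1.30, 1.26 and 1.503 at 1.5 h. Of the late arrays, only OA 3 h replicate 1 did not lie above every early array. The number called was 7 without OA 1 h replicate 2, OA 3 h replicate 2, OA 3 h replicate 3 or OA 4 h replicate 1, and 8 without OA 1 h replicate 1, OA 1.5 h replicate 1, OA 1.5 h replicate 2 or OA 4 h replicate 3, and it was 10 to 16 without any other array. It was 10 without the arrays lowest and highest in spots above background, 4 without the 2 arrays low in cerebellar signal, 1 without OA 4 h, 2 with slide as a random block, and 0 with slide as a fixed block, where 25 of the 34 were higher and the median was 0.13. Within slide 3, 27 of the 34 were higher, with a median of 0.29. Of all 25173 genes, 12985 were higher with slide as a fixed block and 13657 within slide 3. For the ribosomal protein genes these counts were 6 and 16 of 25, and for the respiratory chain genes 8 and 20 of 26.

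**Figure D1:**
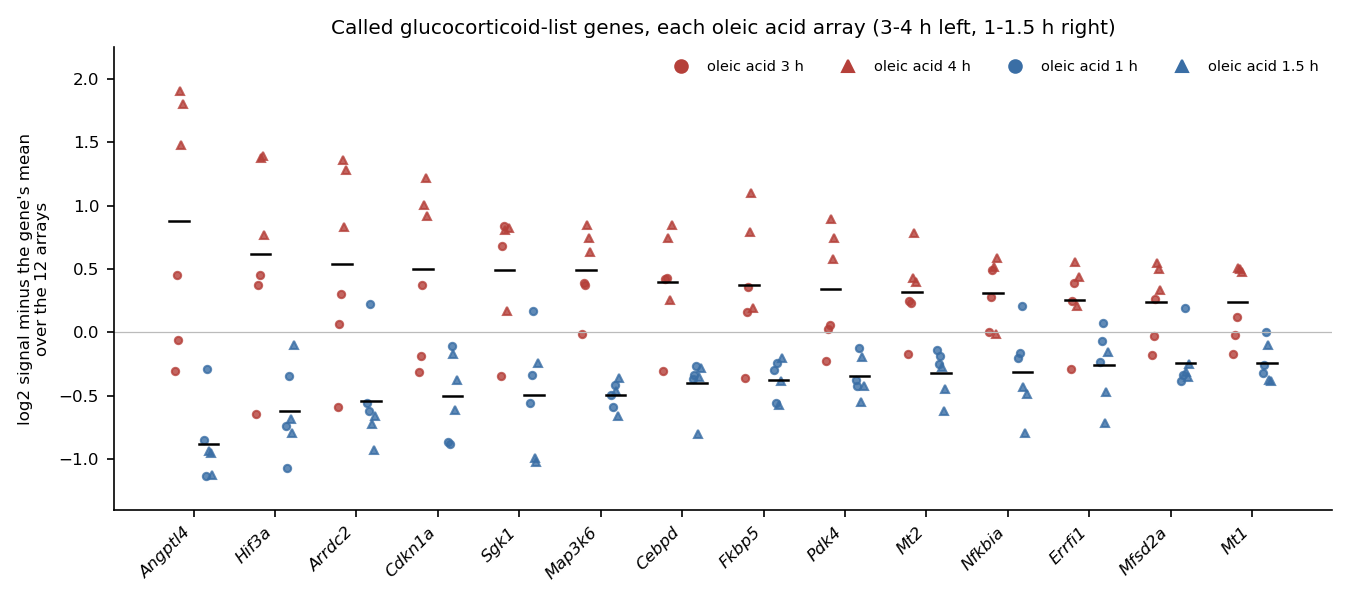
Log2 signal of the 14 called glucocorticoid-list genes on each of the 12 oleic acid arrays, minus the gene's mean over the 12. Red points (left of each pair) are 3 h (circles) and 4 h (triangles), blue points (right) are 1 h (circles) and 1.5 h (triangles), and black bars are period means; for 13 of the 14 genes all 3 arrays at 4 h lie above all 6 at 1 to 1.5 h, which holds for all 3 arrays at 3 h only in Map3k6.

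The metabolic members Angptl4 and Pdk4 were higher. Angptl4, a secreted inhibitor of lipoprotein lipase (probe on chromosome 17, mm9 33911880 to 33911939), had log2 signals of 0.78, 1.53 and 1.02 at 3 h and 2.99, 2.56 and 2.88 at 4 h, against 0.23, -0.05 and 0.79 at 1 h and 0.15, 0.13 and -0.04 at 1.5 h. All 3 arrays at 4 h lay far above the rest, while at 3 h the lowest array fell just under the highest early one; the change was 1.76 ± 0.20 (SE; limma adjusted p = 9.86e-05). Pdk4, the kinase that shuts off pyruvate dehydrogenase, had lowest, median and highest values of -1.21, -0.66 and -0.09 at 3 to 4 h, against -1.53, -1.38 and -1.10 at 1 to 1.5 h (0.69 ± 0.12, adjusted p = 0.00452). Its 3 arrays at 4 h stood above all others, and 1 of those at 3 h was within the early range. Map3k6, a kinase upstream of stress-activated MAP kinases whose promoter stretch is shown above, had 0.54, 1.07 and 1.41 at 3 to 4 h, against -0.10, 0.08 and 0.20 at 1 to 1.5 h. It was the only member whose 2 periods did not overlap, and it had the smallest adjusted p of the list (0.99 ± 0.10, adjusted p = 5e-05). Its 2 probes changed by 0.90 and 0.99.

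Hif3a, a hypoxia-inducible factor subunit, had lowest, median and highest log2 signals of -0.89, 0.36 and 1.15 at 3 to 4 h, against -1.31, -0.96 and -0.35 at 1 to 1.5 h, so that the ranges overlapped while the change was 1.24 ± 0.23 (limma adjusted p = 0.0106). A second Hif3a probe changed by 0.40. Arrdc2, which encodes an arrestin-domain protein, reached 1.92, 3.08 and 3.86 at 3 to 4 h, against 1.58, 1.87 and 2.73 at 1 to 1.5 h. The early maximum was OA 1 h replicate 3; the change was 1.08 ± 0.21 (adjusted p = 0.0132). For Cdkn1a, the cyclin-dependent kinase inhibitor, the probe used had 0.86, 1.82 and 2.39 at 3 to 4 h, against 0.29, 0.68 and 1.07 at 1 to 1.5 h (1.00 ± 0.19, adjusted p = 0.0106). A second Cdkn1a probe went the other way, with a change of -0.50, so the gene's direction depends on the probe.

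The metal-binding pair Mt1 and Mt2, whose promoter stretches are shown above, were both called. Mt2 had 6.52, 7.01 and 7.47 at 3 to 4 h, against 6.07, 6.43 and 6.55 at 1 to 1.5 h (0.64 ± 0.13, limma adjusted p = 0.014). Mt1 had 7.05, 7.52 and 7.73 at 3 to 4 h, against 6.84, 6.93 and 7.22 at 1 to 1.5 h (0.47 ± 0.10, adjusted p = 0.0276). In both genes the 4 h arrays lay above all early arrays, while 1 of the 3 h arrays for Mt2 and 2 for Mt1 lay within the early range. They were the only calls among 8 genes of the metallothionein list (median 0.16), and leaving out 1 array at a time lost 1 of the 2 for 8 of the 12 arrays. Neither was called with slide as a random or a fixed block, within slide 3, without OA 4 h or without the 2 arrays low in cerebellar signal. Mt3, the metallothionein of neurons, changed by -0.11 (adjusted p = 0.838) and the zinc exporter Slc30a1 by 0.22 (adjusted p = 0.265). Mt1 and Mt2 are close copies, and shared signal between their probes was not tested.

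Cebpd, Nfkbia and Mfsd2a were higher as well. Cebpd, an acute-phase transcription factor, ranged over 0.79 to 1.94 at 3 to 4 h, against 0.29 to 0.83 at 1 to 1.5 h (0.80 ± 0.17, limma adjusted p = 0.0187). Nfkbia, the inhibitor that holds NF-kB in the cytoplasm, ranged over 3.43 to 4.03 at 3 to 4 h, against 2.65 to 3.65 at 1 to 1.5 h (0.62 ± 0.15, adjusted p = 0.042). Mfsd2a, the transporter that carries lysophospholipids with omega-3 chains across the blood-brain barrier, ranged over 2.30 to 3.03 at 3 to 4 h, against 2.09 to 2.67 at 1 to 1.5 h (0.48 ± 0.11, adjusted p = 0.0344). The periods overlapped in all 3 genes. The other 3 called members, named after their values were seen, were Fkbp5, a chaperone of the glucocorticoid receptor (0.75, adjusted p = 0.0418), the kinase Sgk1 (0.99, adjusted p = 0.0421) and Errfi1, a brake on the EGF receptor (0.52, adjusted p = 0.0455). Of the 20 that did not pass, Plin4, a coat protein of lipid droplets, had a change of 1.77 (adjusted p = 0.0734), Per1 0.40 (adjusted p = 0.203) and Tsc22d3, which encodes an anti-inflammatory leucine zipper protein, 0.31 (adjusted p = 0.361).

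Of 22 genes of the FOXO, insulin and fasting list, 5 were called, all higher, and the median of the list was 0.12. Of the 22, 13 were higher, against 15499 of all 25173 genes. With slide as a fixed block 10 were higher (median -0.06), against 12985 of all 25173 genes. Foxo3, a FOXO factor itself, had lowest, median and highest log2 signals of -1.20, -0.92 and -0.52 at 3 to 4 h, against -2.43, -2.08 and -1.51 at 1 to 1.5 h. The periods did not overlap, and the change was 1.16 ± 0.15 (limma adjusted p = 0.000434), but a second Foxo3 probe changed by 0.24. Txnip, which binds thioredoxin and limits glucose uptake, had 0.35, 0.93 and 1.40 at 3 to 4 h, against -0.62, -0.09 and 0.88 at 1 to 1.5 h (0.93 ± 0.18, adjusted p = 0.0112). Its highest early array was OA 1 h replicate 3, and its 1.5 h arrays were the lowest. Arrdc4, an arrestin-domain relative of Txnip, was -0.29 to 0.37 at 3 to 4 h, against -0.88 to -0.30 at 1 to 1.5 h, without overlap (0.50 ± 0.11, adjusted p = 0.0352; a second probe 0.11). Sesn1, a stress-induced inhibitor of growth signalling, was 2.54 to 3.55 at 3 to 4 h, against 2.46 to 3.14 at 1 to 1.5 h (0.41 ± 0.10, adjusted p = 0.0418). Cdkn1a, described above, was the fifth. The insulin receptor gene Insr changed by -0.25 (adjusted p = 0.332) and Irs2 by 0.17 (adjusted p = 0.522). Leaving out OA 1 h replicate 1 or 2, OA 1.5 h replicate 1 or 3, OA 3 h replicate 3 or OA 4 h replicate 3 gave 3 calls, any other array 4 to 6, leaving out OA 4 h gave 1, and leaving out the 2 arrays low in cerebellar signal gave 1. With slide as a random block 1 was called, and with slide as a fixed block or within slide 3 none.

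Fatty acid genes other than Angptl4, Pdk4 and Mfsd2a did not pass the test. Of 26 measured targets of PPAR and genes of fatty acid oxidation, those first 2 were called. Of these 26, 23 were higher (median 0.16), against 15499 of all 25173 genes. Cpt1a, which admits fatty acids to mitochondria, changed by 0.27 (limma adjusted p = 0.0576) and Plin2, another droplet coat gene, by 0.26 (adjusted p = 0.174). Of 15 genes of fatty acid binding and transport, Mfsd2a alone was called (median 0.11); the fatty acid receptor gene Cd36 changed by 0.09 (adjusted p = 0.82). None of 16 fatty acid synthesis genes and none of 24 cholesterol synthesis genes was called (medians 0.09 and 0.07).

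**Figure D2:**
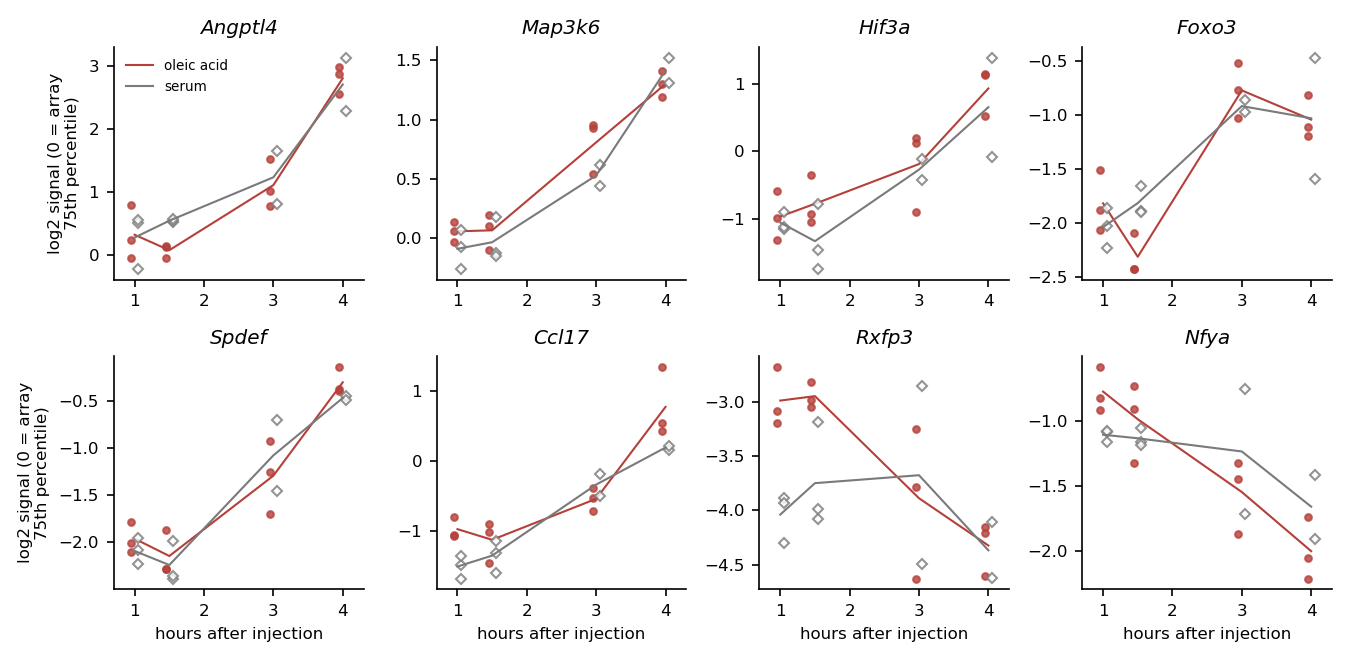
Log2 signal against hours after injection (1, 1.5, 3 and 4 h) for 8 genes; red circles are oleic acid mice, grey diamonds serum mice, and lines join group means. Angptl4, Map3k6, Spdef and Ccl17 climb from 1.5 h to 4 h in both treatments, Foxo3 is already high at 3 h, and Rxfp3 and Nfya decline in oleic acid mice. In serum mice Nfya changed by -0.33 and Rxfp3 by -0.13.

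Among called features with a gene symbol, the 12 largest rises with no overlap between periods, a signal above background on all 12 arrays and the same sign at each pair of times and within slide 3 were led by Spdef. Spdef, an ETS transcription factor of secretory epithelium (probe on chromosome 17, mm9 27851401 to 27851460), had log2 signals of -1.25, -0.92 and -1.70 at 3 h and -0.39, -0.37 and -0.13 at 4 h, against -2.10, -2.01 and -1.78 at 1 h and -2.28, -1.87 and -2.29 at 1.5 h. The 4 h arrays stood above the 3 h arrays and these above all early ones (1.26 ± 0.14, limma adjusted p = 9.86e-05). Ccl17, a chemokine that draws T cells, had lowest, median and highest values of -0.70, 0.03 and 1.35 at 3 to 4 h, against -1.46, -1.02 and -0.80 at 1 to 1.5 h (1.16 ± 0.15, adjusted p = 0.000364). Cabyr, a calcium-binding protein known from sperm tails, had -2.55, -2.01 and -1.70 at 3 to 4 h, against -3.58, -2.97 and -2.71 at 1 to 1.5 h (0.95 ± 0.11, adjusted p = 9.86e-05). Drd4, a dopamine receptor, had -2.88, -2.43 and -2.08 at 3 to 4 h, against -3.57, -3.34 and -2.98 at 1 to 1.5 h (0.83 ± 0.15, adjusted p = 0.00712). Gadd45g, a stress-induced growth arrest gene, was the only one of 33 immediate early genes called, with 3.44, 3.76 and 4.26 at 3 to 4 h, against 2.85, 2.97 and 3.34 at 1 to 1.5 h (0.79 ± 0.13, adjusted p = 0.00403). Foxo3 and Map3k6, described above, belong to the same 12.

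The other 5 changed by 0.67 to 0.76. Ctla2a, which encodes an inhibitor of cathepsin-type proteases, ranged over 1.17 to 1.60 at 3 to 4 h, against 0.33 to 0.78 at 1 to 1.5 h (limma adjusted p = 0.0158), and its neighbour and near copy Ctla2b over 0.26 to 0.63 at 3 to 4 h, against -0.44 to -0.18 at 1 to 1.5 h (adjusted p = 0.00452); probes of near-identical genes may share signal. Amigo3, an adhesion molecule, ranged over -1.73 to -0.91 at 3 to 4 h, against -2.43 to -2.04 at 1 to 1.5 h (adjusted p = 0.0354). Cavin4, a caveola coat protein of muscle, ranged over -2.84 to -2.09 at 3 to 4 h, against -3.32 to -2.99 at 1 to 1.5 h (adjusted p = 0.0187). Cdt1, which licenses DNA for replication, ranged over -0.77 to -0.35 at 3 to 4 h, against -1.46 to -0.96 at 1 to 1.5 h (adjusted p = 0.0106). In each of the 5 the 3 h and 4 h arrays overlapped each other.

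Of the 43 genes called lower, 12 with a gene symbol met the same rule, and 11 of them are given here. Rxfp3, the receptor of the neuropeptide relaxin-3 (probe on chromosome 15, mm9 10963477 to 10963536), had log2 signals of -3.25, -4.63 and -3.79 at 3 h and -4.21, -4.61 and -4.16 at 4 h, against -3.09, -2.68 and -3.20 at 1 h and -2.82, -2.99 and -3.05 at 1.5 h. The early arrays were tight and the 3 h arrays spread widely below them (-1.13 ± 0.24, limma adjusted p = 0.0187); a second probe changed by -0.25. In serum mice Rxfp3 ranged over -4.62 to -2.86 at 3 to 4 h, against -4.30 to -3.19 at 1 to 1.5 h. Nfya, a subunit of the CCAAT-binding factor NF-Y, had lowest, median and highest values of -2.21, -1.80 and -1.33 at 3 to 4 h, against -1.32, -0.87 and -0.58 at 1 to 1.5 h (-0.89 ± 0.14, adjusted p = 0.00406). In serum mice Nfya was -0.76 and -1.71 at 3 h and -1.41 and -1.91 at 4 h. Its early serum arrays ranged over -1.18 to -1.06, and the serum change was -0.33 (limma adjusted p = 0.32). Chrm4, a muscarinic acetylcholine receptor, had -3.38, -2.83 and -2.62 at 3 to 4 h, against -2.57, -2.19 and -2.04 at 1 to 1.5 h (-0.66 ± 0.15, adjusted p = 0.0375). Erv3, listed under the symbol of an endogenous retroviral sequence, had -4.67, -4.29 and -4.11 at 3 to 4 h, against -3.85, -3.32 and -3.05 at 1 to 1.5 h (-0.97 ± 0.22, adjusted p = 0.0334).

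P2ry13, Clec2d and Slc7a11 were lower as well. P2ry13, a purine receptor of microglia, had -1.98, -1.64 and -1.36 at 3 to 4 h, against -1.21, -1.05 and -0.91 at 1 to 1.5 h (-0.60 ± 0.14, limma adjusted p = 0.0418), and was the only one of 22 microglial markers called (median of the list -0.03). Clec2d, a lectin recognised by natural killer cells, ranged over -4.27 to -3.27 at 3 to 4 h, against -3.20 to -2.59 at 1 to 1.5 h (-0.78 ± 0.18, adjusted p = 0.039). Slc7a11, the cystine and glutamate exchanger, ranged over -2.15 to -1.72 at 3 to 4 h, against -1.65 to -1.31 at 1 to 1.5 h (-0.46 ± 0.10, adjusted p = 0.0187); it was the only one of 19 NRF2 targets called, while the median of that list was 0.12. The other 4 given were Trmt1l, related to tRNA methyltransferases (-0.54), the monocarboxylate transporter family member Slc16a13 (-0.50), the ephrin ligand Efnb2 (-0.38) and Ipcef1 (-0.34), with adjusted p of 0.00966 to 0.0286. Further probes of Slc16a13, Efnb2 and Ipcef1 changed by as little as -0.03, -0.02 and -0.02.

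Other stress and rhythm lists held 1 or 2 calls or none. Ciart, a repressor under control of the clock whose promoter stretch is shown above, was the only one of 11 clock output genes called (0.79 ± 0.17, limma adjusted p = 0.0209). Its mean log2 signal was -1.26 at 1 h, -2.13 at 1.5 h, -0.58 at 3 h and -1.22 at 4 h, so that the low group was 1.5 h and the high group 3 h. None of 15 core clock genes was called (median 0.04); Clock changed by -0.27 (adjusted p = 0.189) and Per3 by 0.42 (adjusted p = 0.229). Cirbp, the cold-inducible RNA-binding protein, was called (0.34 ± 0.08, adjusted p = 0.0347), and Rbm3, of the same list, was not (0.26, adjusted p = 0.202). Ch25h, which makes a hydroxylated cholesterol, was higher (1.23 ± 0.28, adjusted p = 0.0334), at -3.25 to -2.26 at 3 to 4 h, against -4.52 to -3.74 at 1 to 1.5 h, with 5 of 6 early arrays above background. With Cebpd it made 2 calls of 18 in the endothelial acute-phase list. P4ha2, a collagen hydroxylase, was the only one of 29 HIF targets called (0.34 ± 0.08, adjusted p = 0.0287), and its change was -0.02 with slide as a fixed block. Nfkbia was the only one of 17 NF-kB feedback genes. None was called of 22 heat shock, 25 unfolded protein response, 29 interferon-stimulated and 15 cytokine and chemokine genes, with medians of 0.08, 0.03, -0.06 and -0.11. Of the cytokine and chemokine genes 7 were higher and 8 lower. Among them Ccl3 changed by 1.16 (limma adjusted p = 0.051) and Ccl4 by 0.69 (adjusted p = 0.0847). The called chemokine Ccl17 was not in that list.

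**Figure D3:**
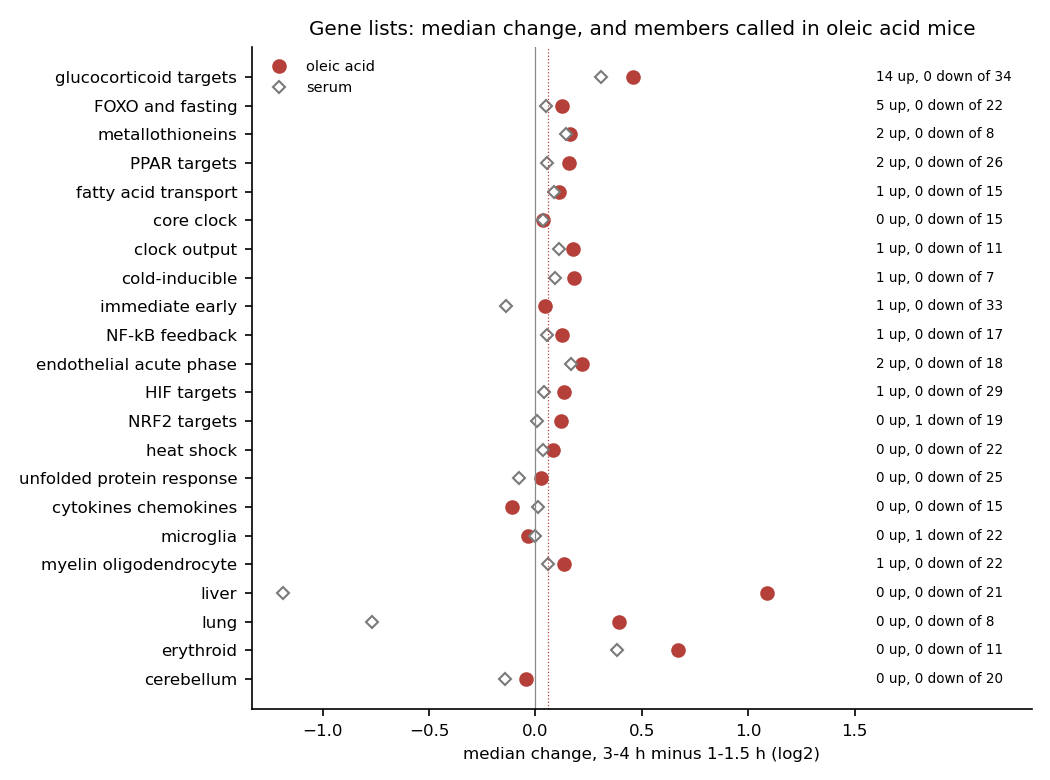
Median change of each of 22 gene lists (log2, 3 to 4 h minus 1 to 1.5 h) in oleic acid mice (red circles) and serum mice (open diamonds); the text at the right counts members called in oleic acid mice, and the dotted line is the median of all genes in them. The glucocorticoid list has 14 of 34 members called higher, while the liver list has the widest gap between treatments of the 22 (1.09 and -1.19) with no member called.

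Markers of brain cell types and of other organs were read on the same arrays. Of 22 myelin genes, Mobp, a structural myelin protein, was called (0.47 ± 0.11, limma adjusted p = 0.0354; 3 probes from 0.03 to 0.47; list median 0.14). None of 18 astrocyte, 20 neuronal, 19 choroid plexus, 15 neutrophil and monocyte or 20 cerebellar markers was called, with medians of 0.13, -0.03, 0.15, 0.02 and -0.04. Neuronal markers averaged 3.12 to 3.64 log2 signal per array at 3 to 4 h, against 3.18 to 3.54 at 1 to 1.5 h. All 21 measured liver genes were higher at 3 to 4 h in oleic acid mice (median 1.09, none called), with list means of -2.12 to -1.28 at 3 to 4 h, against -4.13 to -1.43 at 1 to 1.5 h. OA 1 h replicate 2 was the lowest array (-4.13). Alb, serum albumin, changed by 1.56 (adjusted p = 0.291) and Mup4, a major urinary protein, by 1.34 (adjusted p = 0.065). Of 8 lung genes 7 were higher (median 0.39, none called) and of 11 erythroid genes 9 (median 0.67, none called), with the haemoglobin gene Hbb-bt at 0.78 (adjusted p = 0.135). Of all 25173 genes, 15499 were higher. The part of blood or organ RNA in the called genes was not tested.

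The pooled contrast drew mainly on 4 h. Of the 237 genes called higher, all 3 arrays at 4 h lay above all 6 early arrays in 206 (86.9%, against 7.42% of all genes), and all 3 at 3 h did so in 92 (38.8%, against 1.56%). The mean at 4 h was above that at 3 h in 201 of the 237, and below it in 35 of the 43 called lower. These shares come from the contrast that called the genes and describe its shape. Tested singly with limma, 4 h differed from 1.5 h at 3502 genes (13.9%), from 1 h at 538 (2.14%) and from 3 h at 599 (2.38%). The 3 h arrays differed from 1 h at 16 genes (0.0636%) and from 1.5 h at 8 (0.0318%), and the limma test of 1.5 h against 1 h called 0 genes, with 4712 at an unadjusted p under 0.05. The change had the same sign at all 4 pairs of times in 267 of the 280 called genes. With slide as a fixed block the 6 counts of genes called between single times were 3, 3, 8, 3, 1 and 13 in the same order.

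Most of the genes called in oleic acid mice went the same way in serum mice over the same hours. Of the 280, 266 had the same sign in serum, 232 of the 237 higher and 34 of the 43 lower, against 69.6% of all genes. Serum mice had 543 calls (2.16%), 376 higher (1.49%) and 167 lower (0.663%), 116 of which were called in oleic acid mice in the same direction and none in the opposite one: 41.4% of the oleic acid calls and 21.4% of the serum calls. Across the 25173 genes the 2 changes correlated at r = 0.488 (Spearman's rho = 0.514), a description over genes that share slides and probes. The median change of the called genes was 0.59 in oleic acid and 0.45 in serum mice for those higher, and -0.60 and -0.33 for those lower; the oleic acid values were the ones that chose the genes. The test of the difference between the 2 changes called no gene with limma, and 1021 of the 25173 genes had an unadjusted p under 0.05. Where no gene differed, a share of about 0.05 would fall there.

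Serum mice showed the leading rises. Angptl4 changed by 1.56 in serum (limma adjusted p = 0.00135), Map3k6 by 1.03 (adjusted p = 8.64e-05), Spdef by 1.40 (adjusted p = 0.000128), Ccl17 by 1.36 (adjusted p = 0.000242), Hif3a by 1.38 (adjusted p = 0.00803) and Foxo3 by 0.95 (adjusted p = 0.00485). The glucocorticoid list had a median of 0.31 in serum mice, with 28 of 34 higher and 4 called. In serum mice 14229 of all 25173 genes were higher. Errfi1 changed by 0.52 in oleic acid and 0.09 in serum mice, a difference of 0.43 ± 0.19 that did not pass (adjusted p = 1). Among genes with a symbol, the 5 with the smallest unadjusted p for the difference were Ccdc187, Mup4, Erv3, Mup5 and Ect2, with adjusted p of 0.684 to 0.919. Erv3 changed by -0.97 in oleic acid and 0.46 in serum mice, Mup4 by 1.34 and -0.98. The treatments differed at the early times too. At 1 to 1.5 h the mean log2 signal of Erv3 was -3.37 in oleic acid and -4.25 in serum mice, and at 3 to 4 h -4.34 and -3.80. For Chrm4 these means were -2.27 and -2.86, then -2.93 and -2.60. Rxfp3 changed by -1.13 in oleic acid and -0.13 in serum mice (difference -1.01 ± 0.35, adjusted p = 1), and Chrm4 by -0.66 and 0.26 (difference -0.92 ± 0.23, adjusted p = 0.919).

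**Figure D4:**
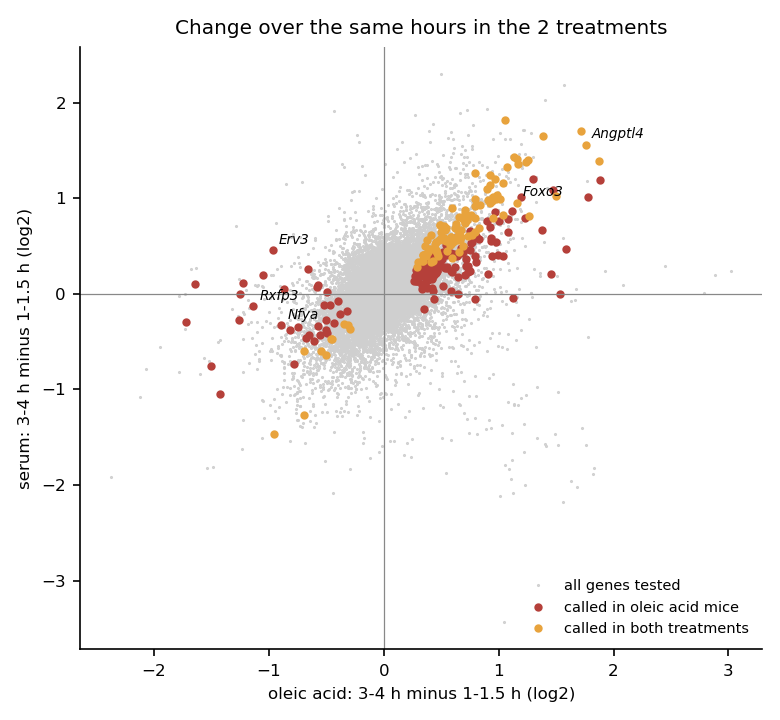
Change from 1 to 1.5 h to 3 to 4 h in oleic acid mice (x axis, log2) against the change over the same hours in serum mice (y axis, log2). Grey dots are the 25173 genes tested, red points the genes called in oleic acid mice, orange points the 116 called in both treatments; 266 of the 280 called genes lie in the quadrants where both changes have the same sign.

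Slide follows time in part. In the fixed-block fit, slides 1 and 2 were linked by serum 1.5 h, slides 2 and 3 by OA 1.5 h and slides 3 and 4 by OA 3 h. In each link 1 of the slides held a single array of that group, so the block estimates rest on single arrays. With slide as a fixed block the median SE was 0.303, against 0.132 without it, and 2 genes were called (0.00795%), Zswim4 and Alg6, both lower and neither called without the block. Of the 280 called genes 272 had the same sign with the block (against 59.3% of all genes), with median changes of 0.45 for those higher and -0.51 for those lower. Within slide 3, where 2 mice at 3 h met 2 at 1.5 h, limma called no gene, 1361 had an unadjusted p under 0.05, and 270 of the 280 had the same sign (against 64.5% of all genes), with medians of 0.34 and -0.48. The arrays behind these estimates also entered the contrast that called the genes, and the largest rises and falls named above were chosen to have the same sign within slide 3. OA 1.5 h replicate 2, the array lowest in cerebellar signal (-0.74), was among the slide 3 arrays. All 20 cerebellar markers were higher within slide 3 (median 0.55). With the block 19 were higher (median 0.93), against a median of -0.04 without it. The part of tissue content in these estimates was not tested. Spdef was 1.62 ± 0.34 with the block and 0.99 within slide 3, Ccl17 1.40 ± 0.36 and 0.78, Angptl4 1.90 ± 0.55 and 1.11, and Map3k6 0.74 ± 0.25 and 0.70. Hif3a was 0.28 ± 0.57 and 0.31, Sgk1 0.15 ± 0.61 and 0.80, and Fkbp5 0.12 ± 0.45 and 0.19. With slide as a random block 16 genes were called (0.0636%), all higher and all among the 280; those with a gene symbol were Spdef, Map3k6, Cabyr, Angptl4, Ccl17, Foxo3 and, outside the naming rule, Colec11, Slc4a11, Nanos2 and Fut7.

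**Figure D5:**
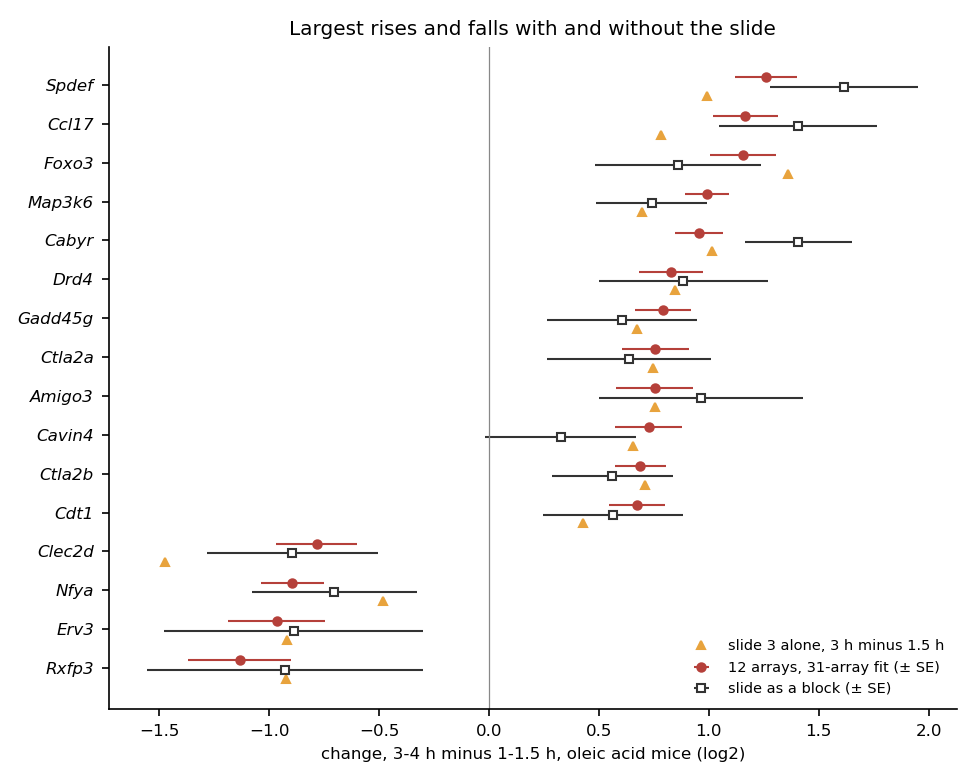
Change from 1 to 1.5 h to 3 to 4 h in oleic acid mice (log2) for the 12 largest rises and the 4 largest falls: red circles with SE without the slide, open squares with SE with slide as a fixed block, and orange triangles the difference of 3 h minus 1.5 h on slide 3. The genes were chosen for, among other things, the sign of the triangles, which is therefore no check; the SE with the block is wider for each of the 16.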

How the data were processed

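RNA from 31 mouse brains was measured on 1 array each. Per the file headers, the authors scanned and extracted the arrays with Agilent Feature Extraction 10.5.1.1; the deposited files hold Cy3 intensity per spot (background-subtracted processed, mean and local background intensity) with flags of 0 or 1, not normalized between arrays. A table of log2 values that the authors deposited for the same arrays served as an alternative; its column medians were 6.24 to 6.26, its columns correlated with log2 mean signal at 0.9977 to 0.9998 across spots, and its centring and normalization are not given in the sources used here. Non-uniform spots were set to missing, spots of a probe averaged, and log2 processed intensity had the array's 75th percentile subtracted. Of 55681 probes, 35649 were kept because all arrays of some group (of 12) had them above background, and 35499 of these had no missing value; the brightest probe per name gave 25173 genes. Names came from accessions (26576 probes) or symbols (3099) in a GRCm38.p6 table, otherwise from the files (26006). Probe coordinates are mm9.

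The model was limma 3.58.1 in R 4.3.3 with 12 group means over the 31 arrays, two-sided, with Benjamini-Hochberg adjustment over all genes tested. Alternatives changed background correction, scaling, filter, probe choice, blocks (slide, scan day, replicate number), weights, test and samples. The code was tested on simulated data. Genes were named by rule: the 12 largest rises and falls among calls without overlap, above background on all 12 arrays and of the same sign at each pair of times and within slide 3, passing over clone, predicted and transcript identifiers, and up to 6 calls per list; others are marked. 1 gene called lower is not reported here. The members, lists and rule were chosen with earlier results of these data known. Separate mice were replicates, and their number limits the precision.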

Additional observations from a re-analysis of the deposited data

Results flagged for a closer look

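In 6 of the 84 sets of 6 oleic acid arrays examined (42 called genes in 2 periods), 1 array stood away from the other 5 by more than the critical value of Dixon's test (0.625 of the range); chance alone flags about 1 set in 20. All 6 were in the 1 to 1.5 h period. OA 1 h replicate 3, the array with the fewest spots above background, was the high one for Angptl4 (0.79, next 0.23), Arrdc2 (2.73, next 1.95), Mfsd2a (2.67, next 2.23) and Sesn1 (3.14, next 2.69). Cavin4 was low in OA 1 h replicate 1 (-3.32, next -3.07) and Cebpd low in OA 1.5 h replicate 1 (0.29, next 0.73). Of the 42 genes, 42 were called without OA 1 h replicate 3, 27 without OA 1 h replicate 1 and 26 without OA 1.5 h replicate 1; over all 12 arrays left out in turn the number was 22 (OA 4 h replicate 3) to 42.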

How the results depend on the processing

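The number of called genes (280; 237 higher, 43 lower) was 181 with normexp background correction, 57 scaled to the array median (41 higher, 16 lower), 233 after quantile normalization (173 higher, 60 lower), 335 in the deposited value table (227 higher, 108 lower), 155 with no filter on dim probes, 57 from the 12 oleic acid arrays alone, 13 from them as 2 groups of 6, 2 with slide as a fixed block, 16 with slide as a random block, 0 within slide 3, 9 with limma treat at 1.2-fold and 2080 with limma arrayWeights, whose fit did not converge. It was 123 to 822 when 1 array was left out, 60 without the 2 arrays lowest in cerebellar signal (OA 1.5 h replicate 2 and OA 4 h replicate 3) and, chosen after seeing the data, 27 without OA 4 h, 371 (208 higher, 163 lower) without the arrays lowest and highest in spots above background, and 280 when probes with missing spots were kept. Stricter filters, the mean of all probes, scan day as a block, trended robust variances and leaving out the 1 h groups gave 265 to 420. With slide as a fixed block the single-time counts were 3 for 3 h against 1 h, 1 for 3 h against 1.5 h, 3 for 4 h against 1 h, 3 for 4 h against 1.5 h, 8 for 4 h against 3 h and 13 for 1.5 h against 1 h, and the serum count was 10. The test between treatments gave 0 genes, 2 after quantile normalization, 4 with slide as a fixed block, 0 to 1 with 1 array left out, and 1 without the arrays lowest and highest in spots above background. Of the 42 called genes that the naming rule gave, 6 were still called with slide as a random block, 0 with slide as a fixed block, 0 within slide 3 and 13 scaled to the array median. P4ha2 changed sign, to -0.0152, with slide as a fixed block; 24 of the 42 were chosen partly for their sign within slide 3. The cause of these differences was not tested. Replicate numbers were not taken to pair the mice in the main fit. Deviations from the group mean correlated at 0.132 on average over 18 same-numbered pairs (from -0.143 to 0.518), against -0.065 over the other pairs. Whether the numbers stand for pairs was not tested further. With the replicate number as a block 267 genes were called (223 higher, 44 lower).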

Other observations

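3 called genes outside the naming rule were chosen after their values were seen. Ada, which degrades adenosine, had log2 signals of -1.97, -1.35 and -1.17 at 3 h and 0.20, -0.18 and -0.28 at 4 h, against -2.23, -2.33 and -2.39 at 1 h and -2.17, -2.72 and -1.88 at 1.5 h (1.495 ± 0.24, limma adjusted p = 0.00403), and changed by 1.02 in serum mice (adjusted p = 0.0457). Itgad, an integrin subunit of myeloid cells, changed by 1.78 ± 0.37 (adjusted p = 0.0189), by 1.01 in serum mice, and by -0.46 ± 0.79 with slide as a fixed block, where its sign was reversed. Itgad was above background on 5 of 6 early arrays, so the size of its change is uncertain. OA 1.5 h replicate 1 was at -6.01, against -4.44 to -3.86 on the other early arrays. Slc4a11, a membrane transporter of the bicarbonate carrier family, ranged over -1.91 to -1.03 at 3 to 4 h, against -2.32 to -1.95 at 1 to 1.5 h (0.65 ± 0.09, adjusted p = 0.000541), and was among the 16 called with slide as a random block.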
